A study of Homo sapiens with 12 samples.

Results

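The NRF2 pathway and its aldo-keto reductase targets were read in 10 genes, taken from the deposited count table by gene name: NFE2L2, KEAP1, AKR1C1, AKR1C2, AKR1C3, AKR1B10, NQO1, GCLC, GCLM and TXNRD1. All 10 were found, each on 1 of the table's 59542 rows, and 9 passed the filter on low counts among 17947 genes tested. AKR1B10 did not pass and is described by its counts. RNA-seq libraries, 3 in each of 4 groups, came from SKOV-3, an established human cell line from an ovarian adenocarcinoma. Resistant dKO cells are the cisplatin-resistant derivative (SKOV-3 CDDP) carrying a knockout of both KDM5A and KDM5B, and resistant cells are the same derivative with the genotype WT. Parental dKO cells are cisplatin-sensitive SKOV-3 with the double knockout, and parental cells are cisplatin-sensitive with the genotype WT. KDM5A and KDM5B encode demethylases of lysine 4 on histone H3, and cisplatin is a platinum drug that crosslinks DNA. The labels give no cisplatin dose for the resistant line and do not say whether a knockout line is a clone or a pool. They also do not say that a group's libraries are separate cultures, so the p-values reflect library-to-library spread that may be technical. The design asks how resistant cells differ from parental cells, with and without the KDM5 enzymes, and what the knockout changes in each background.

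NRF2, the product of NFE2L2, is a transcription factor of the response to oxidants and electrophiles. KEAP1 holds it in the cytoplasm and delivers it to the CUL3 ubiquitin ligase for degradation. When reactive compounds modify KEAP1, NRF2 accumulates without any need for a change in its own transcript, enters the nucleus, pairs with small MAF proteins and binds antioxidant response elements in front of its targets. The targets include NQO1, which reduces quinones, GCLC and GCLM, the catalytic and modifier subunits of the enzyme that starts glutathione synthesis, TXNRD1, the cytosolic thioredoxin reductase, and the aldo-keto reductases AKR1C1, AKR1C2, AKR1C3 and AKR1B10, which reduce carbonyl groups of steroids, prostaglandins, retinal or lipid aldehydes. High activity of this pathway has been linked to tolerance of platinum drugs in several cancers.

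The 3 AKR1C genes lie side by side on chromosome 10 of GRCh38: AKR1C1 (ENSG00000187134) at chr10:4963253-4983283 on the plus strand, AKR1C2 (ENSG00000151632) at chr10:4987400-5018031 on the minus strand and AKR1C3 (ENSG00000196139) at chr10:5035354-5107686 on the plus strand. Their coding sequences are 972 bases long each, and AKR1C2 differs from AKR1C1 at 19 bases (98% identity) and AKR1C3 from AKR1C1 at 83 bases (91.5%). The stretch from coding base 73 to 162 of the GENCODE 29 transcripts is shown because it holds 10 of the 19 coding bases at which AKR1C2 and AKR1C1 differ. Capitals mark bases that differ from AKR1C1.
AKR1C1: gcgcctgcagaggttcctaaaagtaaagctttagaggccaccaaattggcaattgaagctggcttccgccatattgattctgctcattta
AKR1C2: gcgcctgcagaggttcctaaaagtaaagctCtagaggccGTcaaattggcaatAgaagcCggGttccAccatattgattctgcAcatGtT
AKR1C3: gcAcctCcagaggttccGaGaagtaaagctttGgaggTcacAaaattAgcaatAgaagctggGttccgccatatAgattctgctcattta

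Over the whole transcripts, 52.2% of all windows of 50 bases in AKR1C2 were found letter for letter in another AKR1C transcript, against 28.6% in AKR1C1 and 12.1% in AKR1C3. At 100 bases the shares were 32.9% for AKR1C2, 17.4% for AKR1C1 and 4.98% for AKR1C3. Read length and the treatment of multi-mapping reads are not stated in the labels, so the split of reads between AKR1C1 and AKR1C2 is uncertain, and the 4 AKR1C genes were also tested as 1 summed row. Other members overlap annotated neighbours. AC019080.1, on the same strand, covers 17.6% of the exon bases of NFE2L2. AC092115.2, antisense, covers 17.7% of those of NQO1, and AL033397.1, on the same strand, covers 6.12% of those of GCLC. The strand setting of the counting is not stated in the labels either, so reads of such neighbours cannot be told apart from those of the gene.

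The promoters of AKR1C1 and AKR1C2 are shown because the levels of these genes ran together over the libraries, and that of GCLM because it holds a strict match to the antioxidant response element. Each is 300 bases from RefSeq (GRCh38.p14) around the annotated start, written in the direction of the gene: AKR1C1 at chr10:4963165-4963464 on the plus strand, AKR1C2 at chr10:5003808-5004107 on the minus strand and GCLM at chr1:93909381-93909680 on the minus strand. Capitals mark a match, here on the opposite strand, to the relaxed core TGANNNNGC in the AKR1C genes and to the strict core TGACNNNGC in GCLM.
AKR1C1: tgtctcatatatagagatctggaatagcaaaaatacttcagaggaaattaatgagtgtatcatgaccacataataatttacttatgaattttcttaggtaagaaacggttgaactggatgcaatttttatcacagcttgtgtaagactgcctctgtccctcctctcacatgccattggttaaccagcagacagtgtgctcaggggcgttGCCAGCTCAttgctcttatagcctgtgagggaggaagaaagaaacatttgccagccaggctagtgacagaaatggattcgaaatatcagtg
AKR1C2: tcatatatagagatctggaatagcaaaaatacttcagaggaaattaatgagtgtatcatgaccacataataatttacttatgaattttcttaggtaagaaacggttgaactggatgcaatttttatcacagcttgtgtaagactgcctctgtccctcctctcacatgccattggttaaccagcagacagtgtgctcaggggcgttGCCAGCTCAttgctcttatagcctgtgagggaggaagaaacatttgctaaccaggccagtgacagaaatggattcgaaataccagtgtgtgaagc
GCLM: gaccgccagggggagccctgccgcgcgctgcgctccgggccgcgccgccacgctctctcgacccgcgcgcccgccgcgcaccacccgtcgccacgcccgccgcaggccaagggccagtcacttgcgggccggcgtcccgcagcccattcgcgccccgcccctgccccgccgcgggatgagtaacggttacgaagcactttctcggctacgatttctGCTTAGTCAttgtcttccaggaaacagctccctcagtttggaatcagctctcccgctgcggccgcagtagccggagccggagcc

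The AKR1C1 and AKR1C2 promoters had 288 of 292 aligned bases in common (98.6%), while AKR1C1 and the first of 2 AKR1C3 promoters had 78% in common. Searched on both strands, the strict core TGACNNNGC was present in 13.3% of 35116 RefSeq promoters and in 3 of the 9 members with a promoter in the table, GCLM, TXNRD1 and KEAP1. The 9 members have 13 promoters, and a member was counted if any of its promoters matched, so the 2 figures are not in the same unit. The match lay 34 bases before the start in GCLM. In TXNRD1 it lay 102 bases before the start of 1 promoter, and 99 and 8 bases before that of the other. In KEAP1 it lay 54 and 31 bases before the start of 1 of 2 promoters. The relaxed core TGANNNNGC, which every strict match also fulfils, was present in 41.8% of all promoters, and lay 41 bases before the start in AKR1C1 and 45 in AKR1C2. Of the other members without a strict match, NQO1 held it 119 bases before the start, and NFE2L2 146 and 16 bases before the start of 1 of 2 promoters. It was absent from both AKR1C3 promoters and from that of GCLC. The matches describe letters in these windows only.

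Total counts ran from 15659352 to 19706754 per library. Markers of the labelled ovarian epithelial carcinoma cells were present, with 8 or 9 of 10 at a mean of at least 1 CPM (the count scaled to a common library size) in every group. Their mean levels differed in both directions between resistant and parental cells. KRT8 (1380 against 224 CPM) and KRT18 (499 against 108 CPM) were higher in resistant cells. KRT19 (1.58 against 152 CPM), EPCAM (4.13 against 35 CPM), KRT7 (4.24 against 22.4 CPM) and ERBB2 (982 against 4870 CPM) were lower. The KDM5A level lay below every control library of its background in all dKO libraries, at 17.6, 14.8 and 12.0 CPM in resistant dKO against 39.9, 39.0 and 33.4 CPM in resistant cells. It was 22.5, 20.9 and 15.6 CPM in parental dKO against 30.9, 41.5 and 39.4 CPM in parental cells. The KDM5A log2 fold change was -1.34 ± 0.25 (SE; adjusted p = 0.0524) in resistant and -0.92 ± 0.25 (adjusted p = 1) in parental cells by edgeR's quasi-likelihood test. With a block by replicate number within backgrounds, the parental value was -0.93 (adjusted p = 0.0468; 0.0111 with only the groups compared), and the resistant value passed in 8 of 23 alternatives (adjusted p from 6.8e-05 with DESeq2 to 0.0452). The KDM5B levels of the groups overlapped in both backgrounds. Of 9 fibroblast markers, 7 in resistant dKO, 6 in resistant, 3 in parental dKO and 1 in parental cells reached 1 CPM, and their summed level was 2560 to 4490 CPM in resistant dKO, 361 to 967 in resistant, 2.30 to 28.0 in parental dKO and 1.61 to 8.59 in parental cells. None of 5 endothelial markers and 1 of 6 leukocyte markers (CD68) reached 1 CPM in any group, with CD3E at 0 counts in the parental and parental dKO libraries. COL1A1 made up most of that sum in both resistant groups (3650, 671, 3.28 and 0.927 CPM on average in resistant dKO, resistant, parental dKO and parental cells), while DCN ran lower in resistant cells, at 0.0748 CPM against 2.46 CPM in parental cells. Of 5 mesothelial markers, 4 in resistant dKO and 3 in each other group reached 1 CPM, with overlapping sums (65.2 to 73.8 CPM in resistant dKO, 31.3 to 72.3 in resistant, 14.6 to 96.8 in parental dKO and 36.0 to 76.4 in parental cells). Among these, CALB2 averaged 31.2 CPM in resistant dKO, 9.36 in resistant, 0.261 in parental dKO and 0.138 in parental cells. MSLN ran the other way between backgrounds, at 3.68, 0.634, 23.6 and 37.1 CPM in the same order. UPK3B was also lower on average in both resistant groups (8.52 and 10 CPM against 18.1 and 15.6 CPM). LRRN4 was higher in them (27.5 and 26 CPM against 12.3 and 5.21 CPM). The fibroblast sum was thus higher in resistant than in parental cells, and in resistant dKO than in resistant cells. The mesothelial and epithelial markers had no common direction between resistant and parental cells. The part of all these markers in the results below was not tested.

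The transcripts of NRF2 and of its inhibitor KEAP1 did not differ past the test between any groups compared. NFE2L2 (ENSG00000116044, chr2:177227595-177392697, minus strand) had 91.2, 71.3 and 106 CPM in resistant dKO cells and 67.8, 89.8 and 79.6 CPM in resistant cells. It had 85.3, 134 and 53.0 CPM in parental dKO cells and 85.9, 150 and 76.2 CPM in parental cells. The groups overlapped, and the second parental dKO and second parental library stood highest in their groups. KEAP1 (ENSG00000079999, chr19:10486120-10503741, minus strand), the substrate adaptor that removes NRF2, had 102, 80.6 and 146 CPM in resistant dKO cells and 72.1, 95.7 and 98.4 CPM in resistant cells. It had 87.0, 131 and 140 CPM in parental dKO cells and 93.1, 131 and 123 CPM in parental cells. The groups overlapped here too. Resistant over parental, the log2 fold change was -0.40 ± 0.35 (SE, adjusted p = 0.424) for NFE2L2 and -0.38 ± 0.28 (adjusted p = 0.342) for KEAP1. An adjusted p of 0.05 was the threshold here and below.

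The aldo-keto reductases of the AKR1C cluster were the members that differed most between resistant and parental cells, and all 3 fell in the resistant cells. AKR1C1, which inactivates progesterone, had 5.05, 3.27 and 5.00 CPM in resistant dKO cells and 0.350, 0.366 and 0.0526 CPM in resistant cells. It had 16.8, 11.2 and 58.7 CPM in parental dKO cells and 11.6, 15.9 and 55.4 CPM in parental cells. The resistant values rest on 6, 6 and 1 counts. Every resistant library lay below every library of the other 3 groups, the resistant dKO libraries lay between resistant and both parental groups, and library 3 stood highest in parental dKO and in parental cells. Resistant over parental, the AKR1C1 level had a log2 fold change of -6.74 ± 0.92 (SE, adjusted p = 0.000252), a 107-fold lower level, and the summed reads alone gave a ratio of 0.00845 with a 95% exact counting interval of 0.00449 to 0.0145. In bulk RNA, fewer cells that make a transcript and less of it per cell cannot be told apart.

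AKR1C2, a hydroxysteroid dehydrogenase that inactivates dihydrotestosterone, had 0.544, 0.941 and 0.371 CPM in resistant dKO cells and 0 CPM in all 3 resistant libraries. It had 1.65, 1.42 and 5.75 CPM in parental dKO cells and 0.777, 0.833 and 3.37 CPM in parental cells. The resistant libraries held 0 counts against 91 in the 3 parental libraries, below every library of the other groups. Against a floor of 3 counts over the group (0.0571 CPM), with the 91 counts taken as exact, the level was 30.9-fold lower. The gene passed edgeR's test (adjusted p = 0.00233). AKR1C3, which makes testosterone and also acts on prostaglandins, had 55.1, 27.5 and 13.3 CPM in resistant dKO cells and 9.46, 6.15 and 1.79 CPM in resistant cells. It had 33.4, 19.0 and 114 CPM in parental dKO cells and 20.3, 22.6 and 85.3 CPM in parental cells. All resistant libraries lay below all libraries of the other groups for AKR1C3, while resistant dKO and parental dKO overlapped. The AKR1C3 level was 7.38-fold lower in resistant than in parental cells (log2 fold change -2.88 ± 0.83, SE, adjusted p = 0.0217). This call rested on single libraries, and was lost without parental library 3 (-1.92, adjusted p = 0.081), resistant library 2 (-2.93, adjusted p = 0.0651) or resistant library 3 (-2.43, adjusted p = 0.0707). AKR1C1 and AKR1C2 passed in all 21 alternatives run for this contrast.

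**Figure D1:**
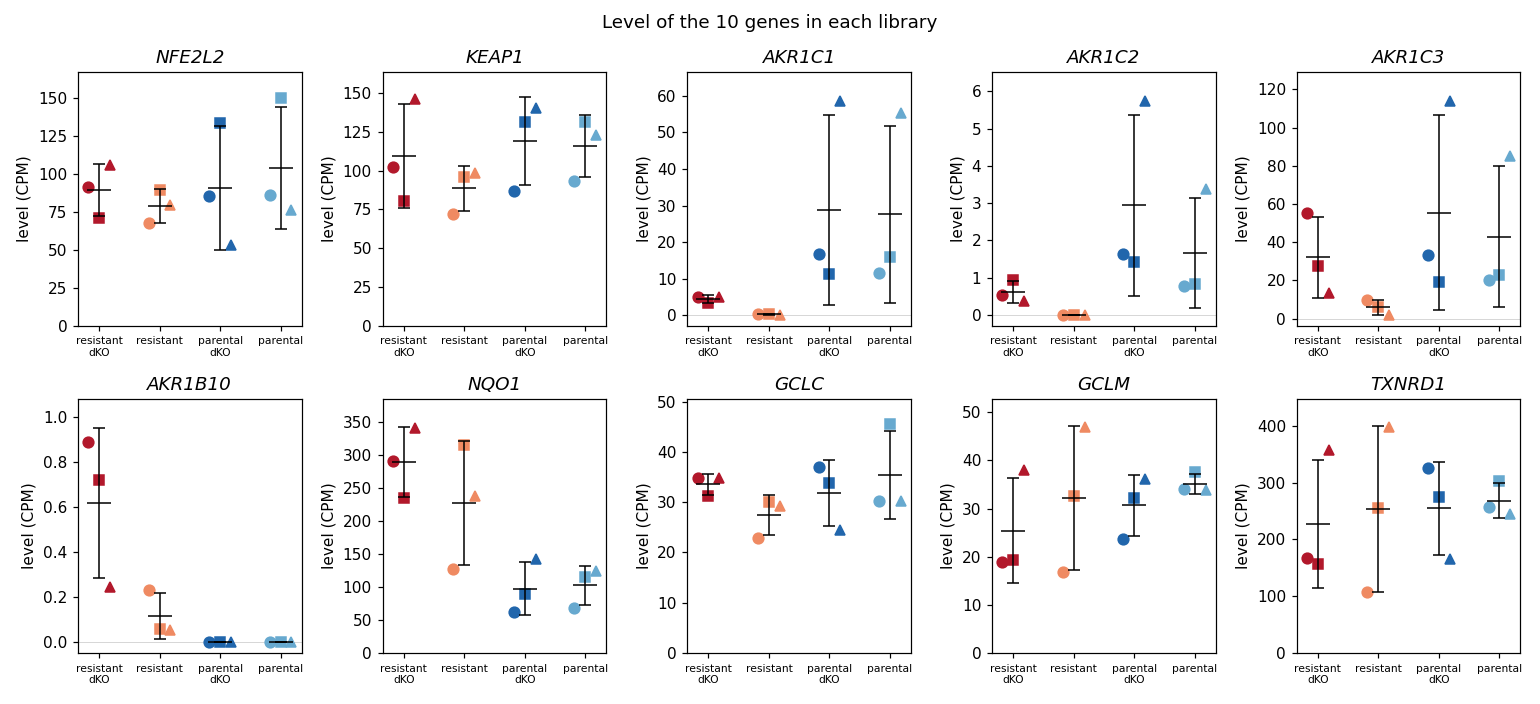
Level of each of the 10 genes in CPM (linear axis) in the 12 libraries, by group from resistant dKO to parental; circles, squares and triangles are libraries 1, 2 and 3, and bars show the mean and SD of 3 libraries. AKR1C1 lies at or below 0.366 CPM in the 3 resistant libraries and at 11.2 CPM or more in the 6 parental and parental dKO libraries, and AKR1B10 is at 0 in those 6.

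Summed over AKR1C1, AKR1C2, AKR1C3 and AKR1C4, a sum that does not depend on how counted reads are split within the cluster, the level was 60.7, 31.7 and 18.7 CPM in resistant dKO cells and 9.81, 6.52 and 1.84 CPM in resistant cells. It was 51.9, 31.8 and 179 CPM in parental dKO cells and 32.8, 39.3 and 144 CPM in parental cells. The resistant libraries were again below all others, and resistant dKO libraries overlapped both parental groups. The summed row fell in resistant against parental cells (log2 fold change -3.58, adjusted p = 0.00721). Library 3 of parental dKO, which stood highest, also had the highest mitochondrial share of counts at 16.3%, against 5.34% to 10.7% in the others. Parental library 3 stood almost as high in AKR1C reads with a mitochondrial share of 7.55%, and the part of that share in the AKR1C levels was not tested. AKR1C4, the liver enzyme of the family, had 0 counts in the resistant dKO and resistant libraries, 1, 3 and 3 in parental dKO and 2, 0 and 0 in parental cells.

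The composition of the AKR1C reads differed as well. AKR1C1 made up 8.39%, 10.6% and 27.4% of the AKR1C1 plus AKR1C3 counts in resistant dKO cells, 3.57%, 5.61% and 2.86% in resistant cells, 33.5%, 37.0% and 34.0% in parental dKO cells, and 36.3%, 41.3% and 39.4% in parental cells. The shares stayed between 33.5% and 41.3% in the parental dKO and parental libraries although the levels behind them differed several-fold, and each resistant group lay below its parental counterpart without overlap. These shares were not tested. Exact (Clopper-Pearson) 95% intervals, which cover counting error only, were wide in resistant cells (0.0723% to 14.9% in library 3) and narrower in resistant dKO library 3 (22.4% to 32.8%), which stood above the other resistant dKO libraries. AKR1C2 made up 9.73%, 22.4% and 6.90% of the AKR1C2 plus AKR1C1 counts in resistant dKO, 8.97%, 11.3% and 8.91% in parental dKO and 6.28%, 4.98% and 5.73% in parental cells. Resistant cells had 0 of 6, 0 of 6 and 0 of 1 such counts, too few for a share. The parental dKO shares lay above the parental shares without overlap. Their counting intervals overlapped in library 1 (6.25% to 12.4% against 3.39% to 10.5%) and library 2 (7.21% to 16.6% against 2.68% to 8.37%). In library 3 they did not (7.31% to 10.7% against 4.45% to 7.24%). The split of reads between these 2 genes is uncertain, and these shares were not tested either.

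**Figure D2:**
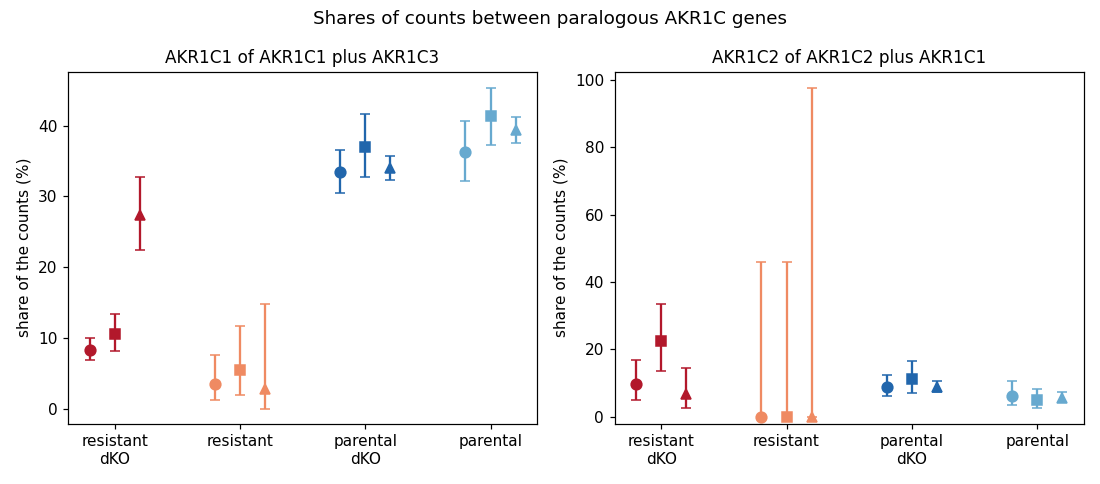
Share of counts, in percent, of AKR1C1 among AKR1C1 plus AKR1C3 (left) and of AKR1C2 among AKR1C2 plus AKR1C1 (right), per library and by group from resistant dKO to parental, with 95% Clopper-Pearson intervals; circles, squares and triangles are libraries 1, 2 and 3. The left panel shows 2.86% to 27.4% in the 6 resistant and resistant dKO libraries and 33.5% to 41.3% in the 6 parental dKO and parental libraries; the right panel has no informative value in resistant cells.

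AKR1B10 (ENSG00000198074, chr7:134527592-134541408, plus strand), a reductase of retinal and lipid aldehydes and a sensitive NRF2 target in human cells, had very low levels, higher in resistant than in parental cells, where the AKR1C genes were lower, and higher in resistant dKO than in resistant cells, as the AKR1C genes were. It had 18, 13 and 4 counts in resistant dKO cells, 4, 1 and 1 in resistant cells, and 0 in all 6 parental dKO and parental libraries. Every library of both resistant groups held reads and none of the parental ones did. Against the floor of 3 counts, with the observed counts taken as exact, the level was 11.3-fold higher in resistant dKO than in parental dKO cells. By the same floor it was 1.97-fold higher in resistant than in parental cells, a ratio that rests on 6 counts. Resistant dKO over resistant gave a ratio of 5.63 (95% counting interval 2.34 to 16.4). When no filter on low counts was applied, the adjusted p was 0.000336 between the dKO groups, 0.102 between resistant and parental cells and 0.469 for the knockout in resistant cells.

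NQO1 (ENSG00000181019, chr16:69706996-69726951, minus strand) was the member that passed the test with a higher level in resistant cells. It had 291, 235 and 341 CPM in resistant dKO cells and 128, 315 and 238 CPM in resistant cells. It had 62.1, 89.3 and 142 CPM in parental dKO cells and 68.1, 115 and 124 CPM in parental cells. Both resistant groups lay above the parental group, although resistant library 1 stood only just above it and below the third parental dKO library. Resistant over parental, the NQO1 level was 2.22-fold higher (log2 fold change 1.15 ± 0.39, SE, adjusted p = 0.0422). The direction held in all 21 alternatives, but the call was lost with only the 2 groups in the fit (adjusted p = 0.0502) and without parental library 1 (0.143), 2 (0.0873) or 3 (0.0512), parental dKO library 2 (0.0504), resistant library 2 (0.172) or 3 (0.0803), or resistant dKO library 1 (0.0543). Between the dKO groups the NQO1 level was 2.96-fold higher in resistant cells (log2 fold change 1.57 ± 0.39, adjusted p = 0.0124), and this call held in all 21 alternatives.

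The glutathione and thioredoxin enzymes among the members did not pass the test. GCLC (ENSG00000001084, chr6:53497341-53616970, minus strand) had 34.7, 31.2 and 34.8 CPM in resistant dKO cells and 22.8, 30.0 and 29.3 CPM in resistant cells. It had 37.0, 33.9 and 24.4 CPM in parental dKO cells and 30.3, 45.6 and 30.3 CPM in parental cells. The resistant libraries of GCLC lay just below the parental ones without overlap, by a log2 fold change of -0.37 ± 0.25 (SE, adjusted p = 0.295). GCLM (ENSG00000023909, chr1:93885205-93909456, minus strand) had 19.0, 19.3 and 38.0 CPM in resistant dKO cells and 16.9, 32.7 and 46.9 CPM in resistant cells. It had 23.6, 32.1 and 36.2 CPM in parental dKO cells and 34.1, 37.5 and 33.8 CPM in parental cells. The GCLM levels of all groups overlapped. TXNRD1 (ENSG00000198431, chr12:104215779-104350305, plus strand) had 167, 157 and 358 CPM in resistant dKO cells and 107, 256 and 398 CPM in resistant cells. It had 325, 275 and 165 CPM in parental dKO cells and 257, 303 and 245 CPM in parental cells. Both resistant groups spread over a wider range of GCLM and TXNRD1 than the parental group, with library 3 highest in each, and all groups overlapped. Resistant over parental, the log2 fold change was -0.13 ± 0.37 (adjusted p = 0.826) for GCLM and -0.08 ± 0.45 (adjusted p = 0.913) for TXNRD1. Both signs turned without resistant library 1 (0.18 for GCLM and 0.29 for TXNRD1); that of TXNRD1 also turned to 0.02 without parental library 2 and to 0.02 with library size alone as scaling.

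Counted together, 4 of the 9 members tested passed in resistant against parental cells, NQO1 higher and 3 AKR1C genes lower, where 28.0% of all genes tested passed, 15.2% higher and 12.8% lower. Without parental library 3, resistant library 2 or resistant library 3 the members' count was 2. The libraries of the groups did not overlap for 5 of the 9 members, against 45.5% of all genes. The members' median log2 fold change was -0.38, against 0.022 over all genes. Among the double knockouts, 2 of 9 passed, NQO1 higher and AKR1C1 lower, where 23.9% of all genes passed, 13.6% higher and 10.2% lower. The libraries did not overlap for 3 of the 9, against 37.2% of all genes. The members' share was thus 44.4% without the knockout, against 28.0% of all genes, and 22.2% with it, against 23.9%. Of the 4 calls without the knockout, 3 were neighbouring AKR1C genes that can share reads. With 9 genes, the shares are no result about the members as a set.

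Between the dKO groups the fitted AKR1C differences had the same direction, with values nearer 0 than without the knockout for all 3 genes. The test of that change, given below as the difference of the knockout effects, did not pass for AKR1C1 (4.04, adjusted p = 0.549), AKR1C2 (adjusted p = 0.862) or AKR1C3 (2.09, adjusted p = 1). The AKR1C1 mean was 4.44 ± 1.02 CPM (SD, n = 3) in resistant dKO and 28.9 ± 26.0 CPM in parental dKO cells, a 6.5-fold lower level (log2 fold change -2.70 ± 0.71, SE, adjusted p = 0.0162), and the call was lost without parental dKO library 3 (-1.66, adjusted p = 0.0661) or resistant dKO library 2 (-2.53, adjusted p = 0.0666). AKR1C2 stood at 0.619 ± 0.293 CPM in resistant dKO and 2.94 ± 2.43 CPM in parental dKO cells (log2 fold change -2.23 ± 0.78, adjusted p = 0.06), and passed in 3 of 21 alternatives: without parental library 3 (-2.26, adjusted p = 0.0331), with DESeq2 (-2.25, adjusted p = 0.0218) and without a filter on low counts (-2.24, adjusted p = 0.00739). AKR1C3 stood at 32.0 ± 21.3 CPM in resistant dKO and 55.5 ± 51.2 CPM in parental dKO cells (log2 fold change -0.79 ± 0.77, adjusted p = 0.487), and its sign turned to 0.28 without parental dKO library 3. As shares of means, AKR1C1 in resistant dKO cells was 15.4% of its parental dKO level and in resistant cells 0.927% of its parental level. For AKR1C3 the shares were 57.6% and 13.6%, and for NQO1 296% and 222%.

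**Figure D3:**
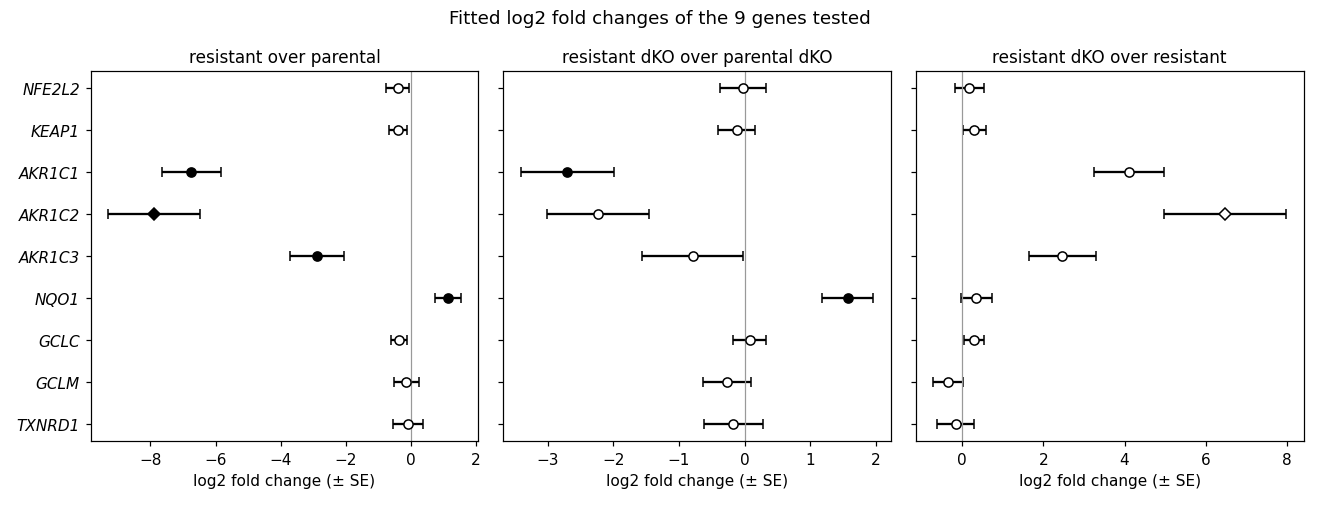
Fitted log2 fold change with its SE of the 9 members tested, in resistant over parental, resistant dKO over parental dKO and resistant dKO over resistant cells; filled symbols passed at an adjusted p of 0.05, and diamonds mark AKR1C2 where a group had 0 counts, whose fitted value is no bound. The filled symbols are AKR1C1, AKR1C2, AKR1C3 and NQO1 in the left panel, AKR1C1 and NQO1 in the middle panel and none in the right panel.

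In resistant cells, the knockout went with higher AKR1C levels that did not pass the test over all genes. AKR1C1 had a mean of 4.44 ± 1.02 CPM in resistant dKO and 0.256 ± 0.176 CPM in resistant cells, with a log2 fold change of 4.11 ± 0.87 (SE, adjusted p = 0.0945) and a counting ratio of 18 (95% interval 10.3 to 34.2). AKR1C2 held 34 counts in resistant dKO against 0 in resistant libraries, a 10.9-fold higher level against the floor of 3 counts (adjusted p = 0.162). AKR1C3 had 32.0 ± 21.3 CPM in resistant dKO against 5.80 ± 3.85 CPM in resistant cells (log2 fold change 2.47 ± 0.82, adjusted p = 0.41). The libraries of the groups did not overlap for these 3 genes and GCLC, which makes 4 of 9 members, all higher in resistant dKO cells, as were the summed fibroblast markers (2560 to 4490 CPM against 361 to 967 CPM), whose part was not tested. Over all genes 15.2% did not overlap, and 8.02% lay higher. Of the 4 members, 3 were neighbouring AKR1C genes that can share reads, and GCLC had an adjusted p of 0.854 with edgeR. The count of 4 is no result about the members as a set. None of the 9 members passed with edgeR, where 0.212% of all genes did, 38 in all and all of them higher; 3 members had an unadjusted p under 0.05, where 7.95% of all genes did, and limma-voom called 0. The calls depended on the parental libraries numbered 3, which share the fit but are not part of the contrast: AKR1C1 passed without parental library 3 (4.10, adjusted p = 0.0458) or parental dKO library 3 (4.10, adjusted p = 0.0365), and without both of them AKR1C1 (adjusted p = 0.00932) and AKR1C2 (adjusted p = 0.0465) passed. DESeq2 also called AKR1C1 (adjusted p = 7.11e-05) and AKR1C2 (adjusted p = 0.00548), and without a filter on low counts AKR1C1, AKR1C2 and AKR1C3 passed (adjusted p 2.91e-12, 9.59e-05 and 5.23e-08). The NQO1 log2 fold change was 0.35 ± 0.38 (adjusted p = 0.906).

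The resistant libraries are shared between this contrast and that of resistant against parental cells, so the values of AKR1C1 are set side by side only: -6.74 resistant over parental, and 4.11 resistant dKO over resistant. In parental cells the knockout moved no member past the test, where 0.00% of all genes passed (539 genes, or 3.00%, at an unadjusted p under 0.05, 11 genes by DESeq2 and 1 by limma-voom). Among the 9 members edgeR, DESeq2 and limma-voom each called 0, and 0 had an unadjusted p under 0.05. The libraries of parental dKO and parental cells overlapped for all 9 members tested, against 6.59% of all genes without overlap. Since libraries with the same number deviated together in these groups, the fit with the replicate number as a block applies: it called 154 genes when the block was set within backgrounds and 1206 when only these groups entered, and 0 of the members in either. The difference of the knockout effects, resistant minus parental background, was 4.04 ± 1.09 for AKR1C1 (log2, SE, adjusted p = 0.549), 2.09 ± 1.11 for AKR1C3 (adjusted p = 1) and 0.42 ± 0.54 for NQO1 (adjusted p = 1). No member passed with edgeR for that difference, where 0.0279% of all genes did, and 2 had an unadjusted p under 0.05, against 3.78% of all genes. With the block within backgrounds AKR1C1 (4.07, adjusted p = 0.000845), AKR1C2 (adjusted p = 0.0373) and AKR1C3 (2.20, adjusted p = 0.00194) passed, and with DESeq2 AKR1C1 (4.06, adjusted p = 0.035); without a filter on low counts all 3 passed (adjusted p 5.12e-07, 0.0348 and 0.0125). That block also covers the resistant dKO and resistant libraries, whose pairing by number is not settled. Deviations of their same-numbered libraries correlated at 0.57, -0.19 and 0.64, and the labels do not say what a number marks.

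Set on a scale per length (CPM per kb of exon), NQO1 was the member with the highest mean level in resistant dKO cells at 88.8 ± 16.3 and in resistant cells at 69.8 ± 28.9 (SD, n = 3), whereas TXNRD1 had the highest in parental dKO cells at 38.0 ± 12.2 and in parental cells at 40.0 ± 4.53. In resistant cells the order of the level per length ran on through TXNRD1 (37.9 ± 21.7), KEAP1 (23.6 ± 3.85), NFE2L2 (13.2 ± 1.84), GCLM (5.93 ± 2.78), GCLC (3.16 ± 0.456) and AKR1C3 (1.28 ± 0.849), with AKR1B10, AKR1C1 and AKR1C2 under 0.1. In parental cells TXNRD1 was followed by NQO1 (31.5 ± 9.23), KEAP1 (30.7 ± 5.26), NFE2L2 (17.4 ± 6.73), AKR1C3 (9.43 ± 8.13), GCLM (6.49 ± 0.381), GCLC (4.09 ± 1.02), AKR1C1 (3.15 ± 2.75) and AKR1C2 (0.257 ± 0.229). In the parental order the means of TXNRD1 and NQO1, NQO1 and KEAP1, NFE2L2 and AKR1C3, AKR1C3 and GCLM, and GCLC and AKR1C1 differed by less than the larger of their SDs, whereas the steps from KEAP1 to NFE2L2, from GCLM to GCLC and from AKR1C1 to AKR1C2 exceeded both SDs. Of the counts of the 2 subunits of glutamate-cysteine ligase, GCLM made up 35.4% to 52.2% in resistant dKO and 42.5% to 61.6% in resistant cells. It made up 38.9% to 59.7% in parental dKO and 45.1% to 53.0% in parental cells, and all 4 ranges overlapped. Exon length is 5420 bases for GCLM and 8646 for GCLC, so equal counts are not equal levels. Summed exon length can also exceed that of a single transcript. It is 8765 bases for AKR1C1, 6461 for AKR1C2 and 4532 for AKR1C3. The transcripts searched for shared windows above are 6705, 3756 and 1807 bases long, in the same order. The places of the AKR1C genes in the orders per length can therefore depend on the length chosen, and other lengths were not tried.

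Over the 12 libraries, which share their 4 groups, log2 CPM of AKR1C1 followed that of AKR1C2 (Pearson r = 0.96) and AKR1C3 (0.89), GCLC followed NFE2L2 (0.82) and GCLM followed TXNRD1 (0.76), while AKR1C1 and NQO1 had r = -0.50. These are descriptions of 12 points in 4 clusters. Among 11877 genes with a mean of at least 5 CPM, the patterns most like that of AKR1C1 were those of PTGIS (r = 0.986), KRT19 (0.980), RARRES2 (0.979), ANPEP (0.978) and PPP1R1B (0.974). The patterns most like that of NQO1 were those of HNRNPA3 (0.983), PSMB6 (0.983), SUCLG1 (0.981), MRPL44 (0.980) and PSMB5 (0.977). PSMB5 and PSMB6 encode catalytic subunits of the proteasome, and KRT19 is among the epithelial markers read above.

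The wider pathway was read in 8 lists of 114 other genes, 106 of which were tested. Resistant over parental, 22 of the 106 rose and 23 fell, and among the double knockouts 16 rose and 14 fell, with medians of -0.04 and 0.06 on the log2 scale against 0.022 and -0.002 over all genes. The share among the double knockouts was 28.3%, where 23.9% of all genes passed. By list, the counts were 4 higher and 4 lower of 16 NRF2 regulators and partners, 3 and 4 of 15 genes of glutathione synthesis and use, 2 and 3 of 15 thioredoxin and peroxiredoxin genes, 1 and 1 of 12 genes of NADPH supply, 3 and 4 of 15 genes of heme, iron and quinone handling, 3 and 4 of 13 genes of conjugation and export, 4 and 2 of 12 other NRF2 targets, and 2 and 1 of 8 other aldo-keto reductases. Each list held genes that passed in either direction. Across all genes 28.0% passed in that comparison, and 42.5% of these 106 did. The 45 calls were 27 without parental library 2 and 29 without resistant library 2. The lists were chosen with earlier results of these data known, so these shares are no result about the pathway as a set. With edgeR the knockout moved 0 of the 106 past the test in resistant and in parental cells (8 and 3 at an unadjusted p under 0.05; 3 and 0 by DESeq2; 0 and 0 by limma-voom). With the replicate number as a block, 0 of them passed in parental cells when it was set within backgrounds, and 10 when only the groups compared entered, 3 higher and 7 lower.

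Among the regulators and partners, NFE2L3 and BACH2 passed with higher levels in resistant cells, while NFE2L2 and its relatives NFE2L1 and BACH1 did not pass. NFE2L3, which encodes the related factor NRF3, had a mean level of 74.8 ± 11.9 CPM in resistant and 7.20 ± 3.11 CPM in parental cells (log2 fold change 3.37 ± 0.36, SE, adjusted p = 4.33e-05). It had 37.4 ± 7.38 CPM in resistant dKO against 8.75 ± 2.16 CPM in parental dKO cells. BACH2, a repressor that also pairs with small MAF proteins, had a mean of 9.12 CPM in resistant and 0.469 CPM in parental cells (log2 fold change 4.24 ± 0.56, adjusted p = 0.000187). It had 7.40 CPM in resistant dKO against 0.504 CPM in parental dKO cells (3.85, adjusted p = 0.000438). NFE2L3 and BACH2 passed in all 21 alternatives of each contrast. NFE2L1, which encodes the related factor NRF1, had a mean of 435 ± 233 CPM in resistant and 734 ± 225 CPM in parental cells (-0.76 ± 0.41, adjusted p = 0.185). BACH1, a repressor of NRF2 targets, had 18.1 ± 1.03 CPM in resistant and 31.1 ± 13.9 CPM in parental cells (-0.78 ± 0.35, adjusted p = 0.114). NFE2L1 and BACH1 were added after their values were seen. The rule named no lower gene of this list, although 4 passed with lower levels and the median log2 fold change of its tested genes was -0.58. SQSTM1 (a mean of 128 CPM in resistant against 732 CPM in parental cells) and MAFG (42.7 against 172 CPM) were lower without overlap. These 2 were also picked after their values were seen.

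Genes of cystine import (SLC7A11) and iron storage (FTH1 and FTL) fell. SLC7A11, the cystine importer that feeds glutathione synthesis, had a mean of 31.0 ± 15.8 CPM in resistant and 180 ± 61.0 CPM in parental cells (log2 fold change -2.53 ± 0.50, adjusted p = 0.00302). FTH1, the ferritin heavy chain, stood at 181 ± 28.0 CPM in resistant and 7930 ± 3040 CPM in parental cells (-5.45 ± 0.48, adjusted p = 9.27e-06). It stood at 488 ± 174 CPM in resistant dKO against 7090 ± 2130 CPM in parental dKO cells, with the reservation that processed copies of FTH1 can share its reads. FTL, the light chain, had a mean of 271 CPM in resistant and 1500 CPM in parental cells (-2.46 ± 0.45, adjusted p = 0.00178). HMOX1, the inducible heme oxygenase of the same list, stood at 31.3 ± 9.31 CPM in resistant and 11.6 ± 5.18 CPM in parental cells (1.43 ± 0.42, adjusted p = 0.0225), a call lost without parental library 2 (adjusted p = 0.0739), parental library 3 (0.0836), resistant library 2 (0.0796) or both parental libraries numbered 3 (0.0655). GPX1, a glutathione peroxidase, had a mean of 126 CPM in resistant and 319 CPM in parental cells (-1.34 ± 0.34, adjusted p = 0.0117). SESN2, a stress-induced sestrin, had 17.4 CPM in resistant and 138 CPM in parental cells (-2.98 ± 0.55, adjusted p = 0.00181).

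TXNRD2, ME1 and GSTA4, from other branches of the pathway, rose. TXNRD2, the mitochondrial thioredoxin reductase, had a mean of 95 CPM in resistant and 29.3 CPM in parental cells (log2 fold change 1.70 ± 0.39, adjusted p = 0.00648). SRXN1, which encodes sulfiredoxin, had 64.4 CPM in resistant and 69.1 CPM in parental cells (-0.10 ± 0.32, adjusted p = 0.841), and its sign turned to 0.09 without parental library 2 or resistant library 1. TXN, which encodes thioredoxin, had 157 CPM in resistant and 280 CPM in parental cells (-0.83 ± 0.32, adjusted p = 0.0665), and passed without resistant library 2 (-1.14, adjusted p = 0.0356), with DESeq2 (adjusted p = 0.0446) and with limma-voom (adjusted p = 0.0437). ME1, the cytosolic malic enzyme that supplies NADPH, had a mean of 61.8 CPM in resistant and 27.1 CPM in parental cells (1.19 ± 0.25, adjusted p = 0.00375). GSTA4, a transferase for lipid aldehydes, had a mean of 11.6 CPM in resistant and 0.123 CPM in parental cells (6.39 ± 0.74, adjusted p = 7.3e-05). It had 12.4 CPM in resistant dKO against 0.186 CPM in parental dKO cells. ABCC3, an exporter of conjugates, fell to a mean of 85.8 CPM in resistant cells, against 301 CPM in parental cells (-1.81 ± 0.36, adjusted p = 0.0032).

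Of the other aldo-keto reductases, AKR1B1, the aldose reductase, fell. Its mean was 441 ± 153 CPM in resistant dKO against 1920 ± 795 CPM in parental dKO cells (log2 fold change -2.12, adjusted p = 0.0043). It was 308 ± 132 CPM in resistant against 1080 ± 310 CPM in parental cells (-1.81 ± 0.43, adjusted p = 0.00805). AKR1B1 and AKR1B10 thus stood in opposite order between resistant and parental groups, AKR1B10 with few counts. KCNAB3, a potassium channel subunit of the aldo-keto reductase fold, had a mean of 45.0 CPM in resistant and 4.32 CPM in parental cells (3.38 ± 0.64, adjusted p = 0.00232). LOXL2, a lysyl oxidase of the other NRF2 target list, had a mean of 1500 CPM in resistant and 152 CPM in parental cells (3.30 ± 0.60, adjusted p = 0.00175).

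Among the double knockouts the genes named by the same rule included several not named above. GLRX, a glutaredoxin, had a mean of 14.2 CPM in resistant dKO and 1.16 CPM in parental dKO cells (log2 fold change 3.59 ± 0.83, SE, adjusted p = 0.00824). SLC40A1, the iron exporter ferroportin, had 6.89 CPM in resistant dKO and 0.356 CPM in parental dKO cells (4.24 ± 0.70, adjusted p = 0.0012). GSTM3, a glutathione transferase, had 23.4 CPM in resistant dKO and 8.13 CPM in parental dKO cells (1.53 ± 0.35, adjusted p = 0.00815). LANCL1, which binds glutathione, had 65.3 CPM in resistant dKO and 29.9 CPM in parental dKO cells (1.13 ± 0.23, adjusted p = 0.00434). These calls held in all 21 alternatives of that contrast.

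**Figure D4:**
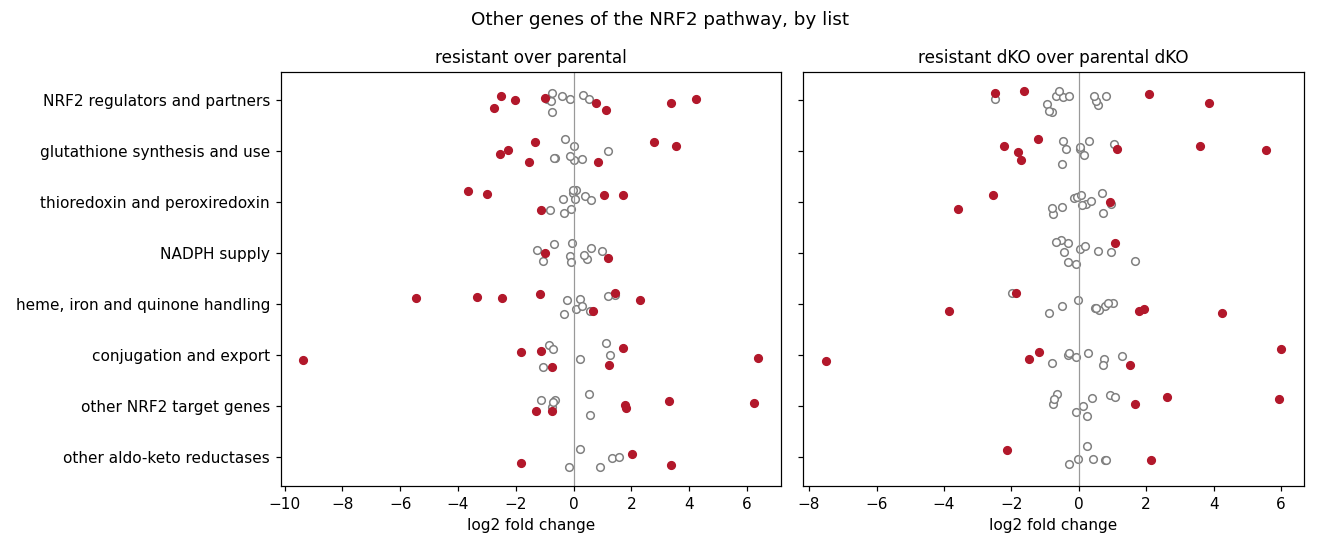
Fitted log2 fold changes of the 106 other pathway genes tested, 1 point per gene and 1 row per list, for resistant over parental (left) and resistant dKO over parental dKO cells (right); filled red points passed at an adjusted p of 0.05, open points did not. Red points lie on both sides of 0 in each list of the left panel, 22 higher and 23 lower in all.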

How the data were processed

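RNA-seq of 12 libraries was analysed from the raw read counts per gene that the authors deposited. Per the labels' protocols, poly(A) RNA libraries were made with a directional kit; STAR 2.7.10a, featureCounts 2.0.1, Trim Galore 0.6.10 and build GRCh38 are named in the submitters' processing notes. Read length, annotation, strand setting and multi-mapping are not given in these sources. A second deposited copy of the table had the same value in all 714504 cells compared. Columns were matched to libraries by name, of which 2 spell the resistant line's name with 1 letter changed. Within-group pairs of libraries had a chi-square of 24.1 to 195 per degree of freedom, beyond sampling noise, and each counted as 1 replicate.

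From these counts, edgeR 4.0.16 (R 4.3.3) kept 17947 genes with filterByExpr, scaled with TMM factors, and fitted 1 mean per group over all 12 libraries. The 5 contrasts were tested with its robust quasi-likelihood test (two-sided) and Benjamini-Hochberg adjustment over all genes tested at 0.05; the adjusted p-values printed are from it where no other tool is named. The SE is the absolute log2 fold change over the square root of F. CPM is the count scaled to the effective library size; CPM per kb divides by summed GENCODE 29 exon length. Ratios against the floor put 3 counts over a group in place of 0. They take the other group's count as exact, so they are no strict lower bounds. Intervals (95%) cover counting error only, since reads carry no molecular identifiers. The test was tried on simulated counts.

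The members and lists were chosen with earlier results of these data known. Named genes are the members, KDM5A and KDM5B, per list and contrast up to 2 genes with the lowest p among calls whose groups did not overlap and whose higher mean was at least 5 CPM, genes named in any case (SLC7A11, SRXN1, HMOX1, TXN, AKR1B1, and 1 that is not reported here), and the 5 genes most like AKR1C1 and NQO1. The alternatives were no filter, library size or median-of-ratios factors as scaling, 1 CPM in 3 libraries, DESeq2 1.42.0, limma-voom (limma 3.58.1), only the groups compared, the replicate number as a block, and leaving out libraries. Deviations from group means of parental dKO and parental libraries with the same number correlated over genes at 0.66, 0.77 and 0.78, so these were taken as paired; resistant dKO and resistant libraries gave 0.57, -0.19 and 0.64 and were not.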

Additional observations from a re-analysis of the deposited data

How the results depend on the processing

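Of 58 results on single genes under 1228 alternatives in all, 1151 kept direction and side of the threshold, 32 lost and 37 gained the call, and 8 turned sign; 37 results did not change under any. The cause of a change was not tested except where fewer libraries entered the fit. The sign turned in resistant against parental cells for TXNRD1 (0.02 with library size, and -0.53 to 0.29 over the single libraries left out), SRXN1 (-0.29 to 0.09) and GCLM (-0.47 to 0.18), and between dKO groups for AKR1C3 (-1.47 to 0.28, and 0.23 without both parental libraries numbered 3). The summed AKR1C log2 fold change for the knockout in parental cells, 0.28, was -0.06 without parental library 1, -0.02 without parental library 2 and -0.79 without parental dKO library 3.

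Leaving out 1 library gave 3081 to 5411 genes (5030 with all; 3081 without parental library 2), 2 to 4 members (4) and 27 to 47 other pathway genes (45; 27 without parental library 2, 29 without resistant library 2) in resistant against parental cells, and a summed AKR1C log2 fold change of -4.11 to -2.61. For the knockout in parental cells the summed AKR1C value was -0.79 to 1.27; for the knockout in resistant cells there were 4 to 50 genes (38), 0 to 1 members (0) and a summed AKR1C value of 2.04 to 3.15 (2.61, adjusted p = 0.337; 0.385 with limma-voom). Between dKO groups it gave 2714 to 4696 genes (4281), 1 to 4 members (2) and a summed AKR1C value of -1.79 to -0.18 (-1.24, adjusted p = 0.254), and for the difference of knockout effects 3 to 8 genes (5) and 1.34 to 3.40 (2.34).

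Under the block by replicate number, the genes called for the knockout in parental cells, 0 without it, were 1 with 3 levels, 154 within backgrounds and 1206 with only the groups compared (10 of them other pathway genes). In resistant cells, pairing by number is not settled. There the block within backgrounds gave 939 genes, 3 members, 7 other pathway genes and a summed AKR1C value of 2.71 (adjusted p = 2.1e-05). With only the groups compared it gave 688 genes, 2 members, 7 other pathway genes and 2.7 (adjusted p = 9.79e-07). AKR1C1 to AKR1C3 passed within backgrounds (adjusted p 7.02e-05, 0.00302 and 2.81e-05). For the difference it gave 18 genes with 3 levels and 274 within backgrounds, with 3 members and a summed AKR1C value of 2.48 (adjusted p = 0.00116). The block within backgrounds cannot be set for contrasts between backgrounds.

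Without the filter, 83 genes were called for the knockout in parental cells, 451 genes, 3 members, 3 other pathway genes and a summed AKR1C value of 2.58 (adjusted p = 9.8e-10) for that in resistant cells, 4 members and -1.24 (adjusted p = 0.00371) between dKO groups, and 161 genes, 3 members and 2.32 (adjusted p = 0.0011) for the difference. DESeq2 called 11 genes in parental cells, 249 genes, 2 members, 3 other pathway genes and the summed AKR1C row (2.60, adjusted p = 0.0336) in resistant cells, and 67 genes and 1 member for the difference; limma-voom called 1 gene in parental cells. Library size gave 11 genes for the difference. Without both parental libraries numbered 3 there were 66 genes and 2 members in resistant cells and 10 genes for the difference.

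Depth limits AKR1C2 and AKR1B10, which held at most 17 and 18 counts per library in the resistant groups, and AKR1C1 in resistant cells (13 counts in all). Their fold changes rest on few counts or on the floor, and the share of AKR1C2 reads in resistant cells was not resolved. Reads shared between AKR1C genes bear on the split between them and, if they were discarded in the counting, also on the summed row. With 3 libraries a group, log2 differences of the size seen for GCLC, GCLM, KEAP1 and NFE2L2 were within 2 SE, which does not show that the levels were alike.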

Other observations

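The rule for named genes also gave values that the comparisons above did not use. TRIM16L, a relative of the NRF2 target TRIM16 whose near-identical sequence can share its reads, had a mean level of 32.6 CPM in resistant dKO against 10.3 CPM in parental dKO cells (1.67 ± 0.30 on the log2 scale, SE; edgeR's quasi-likelihood test, adjusted p = 0.00191), and 24.6 CPM in resistant against 6.92 CPM in parental cells (1.83 ± 0.30, adjusted p = 0.000928). Both calls held in all 21 alternatives. PGLS, which acts second in the pentose phosphate pathway, had a mean of 44.3 CPM in resistant and 89.0 CPM in parental cells (-1.0 ± 0.32, adjusted p = 0.0352); the call was lost without parental library 1 (adjusted p = 0.0835) or 2 (0.141) and without resistant library 1 (0.0575), 2 (0.0694) or 3 (0.125).

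SESN1, a sestrin, stood at a mean of 12.1 CPM in resistant dKO and 6.30 CPM in parental dKO cells (log2 fold change 0.94 ± 0.27, adjusted p = 0.0221), against the direction of SESN2, which had 17.3 CPM in resistant dKO and 101 CPM in parental dKO cells (-2.54 ± 0.54, adjusted p = 0.00499). The SESN1 call was lost without parental dKO library 1 (0.0746) or 2 (0.0617) and without resistant dKO library 1 (0.101) or 2 (0.0653), with only the groups compared (0.0896) and without a filter on low counts (0.158). KCNAB3 had a mean of 24.3 CPM in resistant dKO and 5.49 CPM in parental dKO cells (2.13 ± 0.61, adjusted p = 0.0237), a call lost without parental dKO library 2 (0.0558) or 3 (0.0567), resistant dKO library 2 (0.0878) or both parental libraries numbered 3 (0.0795). In parental dKO cells the mean SLC7A11 level was 81.3 ± 41.3 CPM, against 180 ± 61.0 CPM in parental cells (SD, n = 3), and the HMOX1 level was 22.1 ± 10.4 CPM, against 11.6 ± 5.18 CPM; neither passed.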
